A study of Mus musculus with 32 samples.

Results

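The genes described here are the fusion partners and the transcription elongation cofactors of the MLL oncoprotein. They were chosen by symbol: *Kmt2a* and *Aff1*, the mouse genes of the proteins joined in the MLL-Af4 transgene, and 8 endogenous cofactors of the fusion, *Aff4*, *Men1*, *Psip1*, *Dot1l*, *Mllt1*, *Mllt3*, *Mllt10* and *Cdk9*. These 10 genes were all found among the 26560 genes of the Lin− expression table and the 25887 genes of the CD11b+ table.

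The study mapped where the RNA-binding protein IGF2BP3 contacts RNA in mouse MLL-Af4 leukemia and compared the RNA of wild-type and *Igf2bp3* knockout (I3KO) leukemic cells. Of its 32 samples, 10 were eCLIP libraries, in which RNA crosslinked to IGF2BP3 is precipitated with an antibody and sequenced, and 10 were size-matched inputs (smInput), which by the methods of the study were set aside after the precipitation step. The other 12 were RNA-seq libraries, 3 WT and 3 I3KO from each cell type. There were 6 eCLIP libraries of Lin− cells, of which the labels mark 3 as biological and 3 as technical replicates, and 4 of CD11b+ cells, marked 2 and 2. Lin− cells were lineage-depleted bone marrow cells of WT or I3KO mice, transduced with an MSCV retrovirus that carries MLL-Af4, selected with G418 and kept in culture with cytokines as immortalized cells. CD11b+ cells were enriched with magnetic beads from the splenic tumors of irradiated mice that had received MLL-Af4-transduced marrow, so host cells could be present. Donors of the transplants were WT (C57BL/6J) or I3KO females, and donors and recipients were 8 weeks old. The library names of the CD11b+ eCLIP samples carry the letters bm, and their tissue was not settled here. The methods describe the marrow for the transplants as enriched with 5-fluorouracil (5-FU). All groups carried the transgene; the eCLIP libraries came from WT/MLL-Af4 cells, and the I3KO animals had a germline deletion of *Igf2bp3* that arose in crosses with Vav1-Cre mice. The species and the exons of the MLL portion of the transgene are not given in the sources used here.

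As background, MLL1 (encoded by *Kmt2a*) is a histone H3 methyltransferase that binds chromatin through its N-terminal portion, with the help of menin and LEDGF. In MLL-rearranged leukemia this N-terminal portion is fused to a partner, here AF4 (encoded by *Aff1*), a scaffold of the super elongation complex. Through the partner, the fusion brings P-TEFb and the histone methyltransferase DOT1L to its target genes, which favors transcription elongation there.

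The labels of both cell types were first set beside marker genes, using the authors' mean normalized count over the 6 RNA-seq libraries of each cell type, both genotypes pooled. Both tables were normalized separately, so the values are given side by side with no test. Of 5 stem and progenitor markers, 4 had the higher mean count in the Lin− table, among them *Kit* (6974 against 673), *Cd34* (9052 against 1291) and *Flt3* (9396 against 389.7); *Myb* was lower there (22676 against 37516). Of the 8 myeloid markers, only *Mpo* was higher in the Lin− table, and *Lyz2* (20990.1 against 72146) and *S100a8* (2084 against 39348) were higher in the CD11b+ table. *Itgam*, the gene of CD11b itself, had a mean count of only 17.0 in the CD11b+ table and was not listed in the Lin− table, so RNA of the defining surface marker was near absent from the CD11b+ table. Summed per kb of exon, markers of B cells (21.3 in Lin−, 145 in CD11b+) and T cells (5.33 and 6.03, with *Cd3e* not listed in Lin−) were low beside the myeloid sum (61846 and 187247), while erythroid markers summed to 156 in Lin− and 1743 in CD11b+, led by *Hbb-bs*. The part of these other cells in the results was not tested. In bulk RNA of this kind, fewer cells of a type and less RNA per cell cannot be told apart.

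*Aff1* had the highest RNA level of the 10 genes per kb of exon in both tables. Its mean was 2683 normalized counts per kb in Lin− and 1807 in CD11b+, which was 1.48 and 1.47 times the highest cofactor, *Cdk9*, the kinase of P-TEFb (1807 and 1230.02). *Kmt2a* lay close to the median of the 8 cofactors, at 666 counts per kb in Lin− (1.02 times that median) and 225 in CD11b+ (0.930 times). The level of *Aff1* thus stood above, and that of *Kmt2a* among, the cofactors. Reads of the transgene and of the endogenous gene are not separated in these values, which also pool the genotypes and carry no error.

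Among the cofactors, the chromatin adaptors menin (*Men1*) and LEDGF (*Psip1*) had 765 and 583 counts per kb in Lin− and 212 and 135 in CD11b+. *Dot1l* had 652 and 273. The YEATS proteins ENL (*Mllt1*) and AF9 (*Mllt3*) stood far apart: *Mllt1* had 652 and 307 counts per kb, *Mllt3* 62.4 and 1.97. *Mllt10*, which encodes the DOT1L cofactor AF10, had 660.3 and 353, and the AF4 paralog *Aff4* 431 and 95.7. In Lin− the order from the highest level was *Aff1*, *Cdk9*, *Men1*, *Kmt2a*, *Mllt10*, *Mllt1*, *Dot1l*, *Psip1*, *Aff4* and *Mllt3*. In CD11b+ it was the same at both ends, with *Mllt10*, *Mllt1*, *Dot1l*, *Kmt2a* and *Men1* between *Cdk9* and *Psip1*; which neighbors differ beyond their spread cannot be said from pooled means. Every gene but *Mllt3* was well above the median gene of its table (35.2 counts per kb in Lin−, 29.96 in CD11b+), and *Mllt3* was above it in Lin− only. All 10 genes had the higher mean count in the Lin− table, from 1.47 times for *Cdk9* to 31.6 times for *Mllt3*, beside 73.9% of the 13235 genes that were in both tables with a mean of 100 or more in either.

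**Figure D1:**
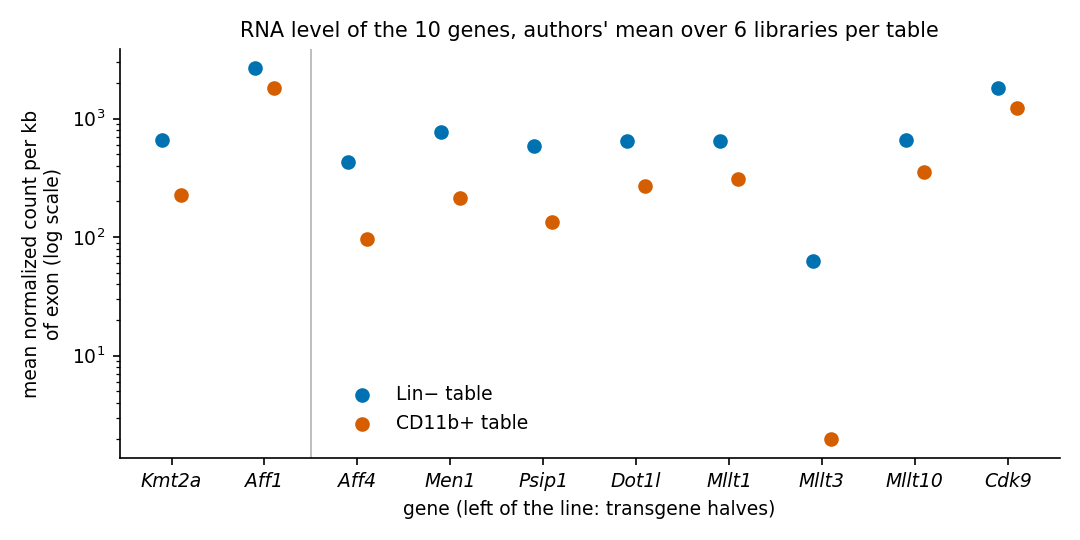
RNA level of the 10 genes in the Lin− (blue) and CD11b+ (orange) tables, as the authors' mean normalized count over 6 RNA-seq libraries divided by the kb of annotated exon, on a log axis with no error bars. *Aff1* was highest in both tables (2683 and 1807) and *Mllt3* lowest (62.4 and 1.97).

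IGF2BP3 contacts were read from the peaks called in each eCLIP library with a p-value of at most 0.05, after removal by the authors of peaks that overlapped an smInput peak (filtered peaks). The filtered libraries held from 4040 to 10042 peaks in Lin− (median 6927.5, n = 6) and from 7085 to 10054 in CD11b+ (median 8053.5, n = 4). Their read depth was not analysed here, so a gene's peaks are given per 10000 filtered peaks of the same library. Tests used the biological replicates only; the labels do not say whether these came from separate mice or cultures, so p-values measure the spread between these libraries.

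The RNAs of both transgene genes were among those with the most peaks in Lin− cells. *Aff1* had 344, 319 and 259 peaks per 10000 in the 3 biological Lin− libraries and 322, 517 and 268 in the technical ones. In CD11b+ it had 3.52 and 5.97 in the biological libraries and 0 and 4.23 in the technical ones. Every Lin− library was thus far above every CD11b+ library, and *Aff1* had the most peaks of any gene in each of the 6 Lin− libraries. The means were 307 ± 43.5 (SD, n = 3) and 4.74 ± 1.73 (SD, n = 2), a difference of 302 and a ratio of 64.7, with exact permutation p = 0.1 (two-sided), the smallest p that 3 against 2 libraries allow. This ratio counts pieces of covered stretches; by bases covered per 10000 covered bases the means were 56.6 ± 6.20 (SD, n = 3) and 4.47 ± 0.782 (SD, n = 2), a ratio of 12.7.

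*Kmt2a* had 92.4, 118 and 38.0 peaks per 10000 in the biological Lin− libraries and 116, 171 and 62.1 in the technical ones. In CD11b+ it had 7.04 and 26.9 in the biological libraries and 9.23 and 25.4 in the technical ones. All Lin− values were above all CD11b+ values, with Lin− replicate 3 the lowest of its group, and *Kmt2a* ranked 2 or 3 by number of peaks in every Lin− library. The means were 82.6 ± 40.6 (SD, n = 3) and 16.9 ± 14.01 (SD, n = 2), a difference of 65.7 with exact permutation p = 0.2 (two-sided). Summed over the libraries, *Aff1* and *Kmt2a* held ranks 1 and 2 of 7944 genes with a peak in Lin− (1385 and 405 peaks), whereas in CD11b+ *Kmt2a* ranked 10 (58 peaks) and *Aff1* 526 (12 peaks) of 7341.

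The 8 cofactors together had far fewer peaks than either gene in Lin−, and in CD11b+ on average more than *Aff1*. Summed, they had 10.9, 12.9 and 11.5 per 10000 in the biological Lin− libraries and 12.4, 9.24 and 13.3 in the technical ones, against 8.22 and 5.97, and 2.64 and 5.65, in CD11b+. The groups did not overlap. Of 767 genes with at least 20 filtered peaks, 100 (13%) had every Lin− library above every CD11b+ library, as *Kmt2a* and *Aff1* did. For the cofactors the groups lay close: the lowest Lin− library had 9.24 and the highest CD11b+ library 8.22. The means were 11.8 ± 1.06 (SD, n = 3) and 7.09 ± 1.59 (SD, n = 2), a difference of 4.68 with exact permutation p = 0.1 (two-sided).

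These differences depended on which peaks and libraries were counted. With only peaks of p below 0.001, they were 523 for *Aff1*, 129 for *Kmt2a* and 2.67 for the cofactors (exact permutation p = 0.1, 0.2 and 0.1). With bases covered per 10000 covered bases they were 52.1, 24.5 and 6.34 (exact permutation p = 0.1 for each). By reads in peaks per 10000 such reads, a measure chosen after seeing the data, they were 403, 173 and 3.54 (exact permutation p = 0.1, 0.1 and 0.2). With all 6 and 4 libraries, in which technical replicates are not independent, they were 335, 82.4 and 6.09 (exact permutation p = 0.00476, 0.0143 and 0.00476). When the libraries that shared inputs were averaged first, which left 3 against 2 values, the differences were the same and exact permutation p was 0.1, 0.2 and 0.1.

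**Figure D2:**
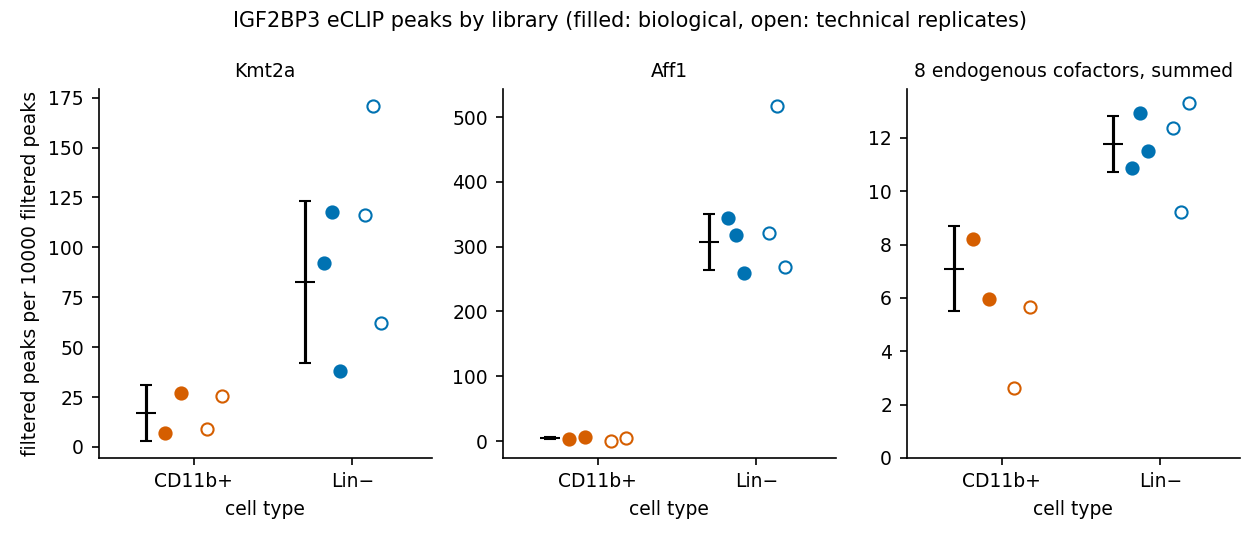
Filtered IGF2BP3 eCLIP peaks of *Kmt2a*, *Aff1* and the 8 cofactors summed, per 10000 filtered peaks of each library, in CD11b+ (orange) and Lin− (blue) cells, with filled points for biological and open points for technical replicates. Black bars give the mean ± SD of the biological replicates. All Lin− points lie above all CD11b+ points in each panel, and the *Aff1* value of Lin− replicate 5 (517) is the highest.

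The peaks were also set beside the RNA levels. In Lin−, 670 genes had an RNA level per kb at or above that of *Aff1*, and none of them had as many filtered peaks. At or above the level of *Kmt2a* were 3711 genes, of which only 1, *Aff1* itself, had at least as many filtered peaks. In CD11b+ the same counts were 114 of 1149 genes for *Aff1* and 9 of 6458 for *Kmt2a*. The RNA levels come from both genotypes and other libraries than the peaks, and the part of RNA level in the peak counts was not tested.

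Of the 8 cofactors, 7 had a filtered peak in Lin− and 6 in CD11b+. At least 1 filtered peak was found for 26.5% of all genes of the Lin− table and 25.6% of the CD11b+ table. Among genes whose mean normalized count was 100 or more, which took in all 8 cofactors in Lin− and 7 in CD11b+, the shares were 51.9% and 47.9%. *Cdk9* had 17 peaks over the 6 Lin− libraries and 7 over the 4 CD11b+ libraries, and *Aff4* had 11 and 3. *Dot1l* had 8 and 1, *Mllt10* 5 and 3, *Mllt1* 2 and 4, *Men1* 4 and 0, *Mllt3* 1 and 0, and *Psip1* 0 and 1. Only *Aff4*, *Dot1l* and *Cdk9* had a peak in all 6 Lin− libraries, and no cofactor had one in all 4 CD11b+ libraries.

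Where the peaks lay set the transgene genes further apart from the cofactors. In Lin−, 400 of 405 *Kmt2a* peaks had their midpoint in a coding exon and the other 5 lay in the 5′ UTR, and *Aff1* had all its peaks in coding exons. Of the 48 cofactor peaks, 41 were intronic, 5 lay in the 5′ UTR of *Cdk9* or *Mllt10* and 2 in a coding exon (exon 27 of *Dot1l* and exon 12 of *Mllt10*, both in Lin− replicate 2). In CD11b+, *Kmt2a* had 57 of 58 peaks in coding exons, *Aff1* 5 of 12, and the cofactors none of 19, all of which were intronic. Over all genes, these members included, coding exons held 11.5% of filtered peaks in Lin− and 1.97% in CD11b+. *Kmt2a* and *Aff1* supplied 400 and 1385 of the 4739 coding peaks in Lin−, so the share of the other genes was lower. Of the genes with at least 10 filtered peaks, 12 of 936 in Lin− (1.28%) had 90% or more of them in coding exons, *Kmt2a* and *Aff1* among them; in CD11b+ it was 3 of 786 (0.382%), *Kmt2a* among them.

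Within each biological library, the share of peaks in coding exons was set against the same share for the cofactors. *Kmt2a* and *Aff1* together had 99.7%, 99.8% and 99.6% in Lin− replicates 1 to 3 and 66.7% and 90.9% in CD11b+ replicates 1 and 2. The cofactors had 15.4% in Lin− replicate 2 and 0 in the other 4. The difference was positive in all 5 libraries, with means of 91.3% ± 14.3 and 3.08% ± 6.88 (SD, n = 5) and a mean difference of 88.3 percentage points (exact sign-flip permutation p = 0.0625, two-sided, the smallest that 5 libraries allow). In CD11b+ this rests on *Kmt2a*: *Aff1* alone had 0 of 3 peaks in coding exons in replicate 1, like the cofactors, and 3 of 6 in replicate 2. When any overlap with a coding exon counted, in place of the midpoint, the difference was 44.1 (exact sign-flip permutation p = 0.0625), since many intronic cofactor peaks reached into an exon.

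Along *Kmt2a* (ENSMUSG00000002028, chr9:44803355-44881296 of GRCm38, minus strand, 36 exons and 11898 coding bases in its longest coding transcript), the Lin− peaks ended early. Exon 1 held 125 filtered peaks, exon 2 13, exon 3 203 and exon 4 52; exon 5 had 5, exons 7 and 9 had 1 each and exon 8 had 5. Exon 6 and exons 10 to 36 had none in any library. The last covered coding base was 4206, at 35.4% of the coding sequence, and in all 1928 coding bases (16.2%) were covered, 541 of them in all 6 libraries. The covered stretch is thus the N-terminal coding portion of *Kmt2a*. The sources used here do not give where the transgene ends within MLL, so the overlap of both could not be computed.

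In CD11b+ the *Kmt2a* peaks sat further 5′. Exon 1 held 52 of the 58 peaks (89.7%), exon 2 held 1 and exon 3 held 4, with the covered bases between 10 and 2678 of the coding sequence. The remaining peak was intronic (chr9:44834601-44834668) and was found in 1 library. Covered coding bases made up 3.03% and 3.50% in the biological libraries and 4.03% in both technical ones, against 7.98% to 13.5% (median 10.5%, n = 6) in Lin−. In Lin− the share of exon 1 was 30.9% of filtered peaks but 49.7% of all 573 called peaks, and exon 1 lost more peaks to the smInput filter than the rest of the gene (285 called, 125 kept).

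Along *Aff1* (ENSMUSG00000029313, chr5:103692374-103855322, plus strand, 20 exons and 3678 coding bases in its longest coding transcript), the Lin− peaks lay toward the other end. Exons 1 to 4 had none in any library, and each of exons 5 to 20 had between 14 (exon 6) and 623 (exon 11) filtered peaks. Exon 11, the longest exon with a fully coding sequence, held 45.0% of them; per kb of exon, exon 10 had the most (773) and exon 11 had 629. The first covered coding base was 1071 (29.1% of the coding sequence) and the last 3662, and 99.7% of the bases between them were covered, 1312 bases in all 6 libraries. From this point on *Aff1* was covered almost without gaps, while *Kmt2a* was covered in patches (45.8% of its span).

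In CD11b+ *Aff1* showed another pattern. Of its 12 peaks, 7 lay at 3 intronic sites that had no Lin− peak (chr5:103749663-103749723, chr5:103777191-103777257 and chr5:103789135-103789194), each found in both biological libraries. The other 5 lay in exon 8 (1 peak), exon 9 (1 peak) and exon 13 (3 peaks). These coding peaks covered 118 bases, none in more than 2 libraries, and lay within the stretch covered in Lin−.

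**Figure D3:**
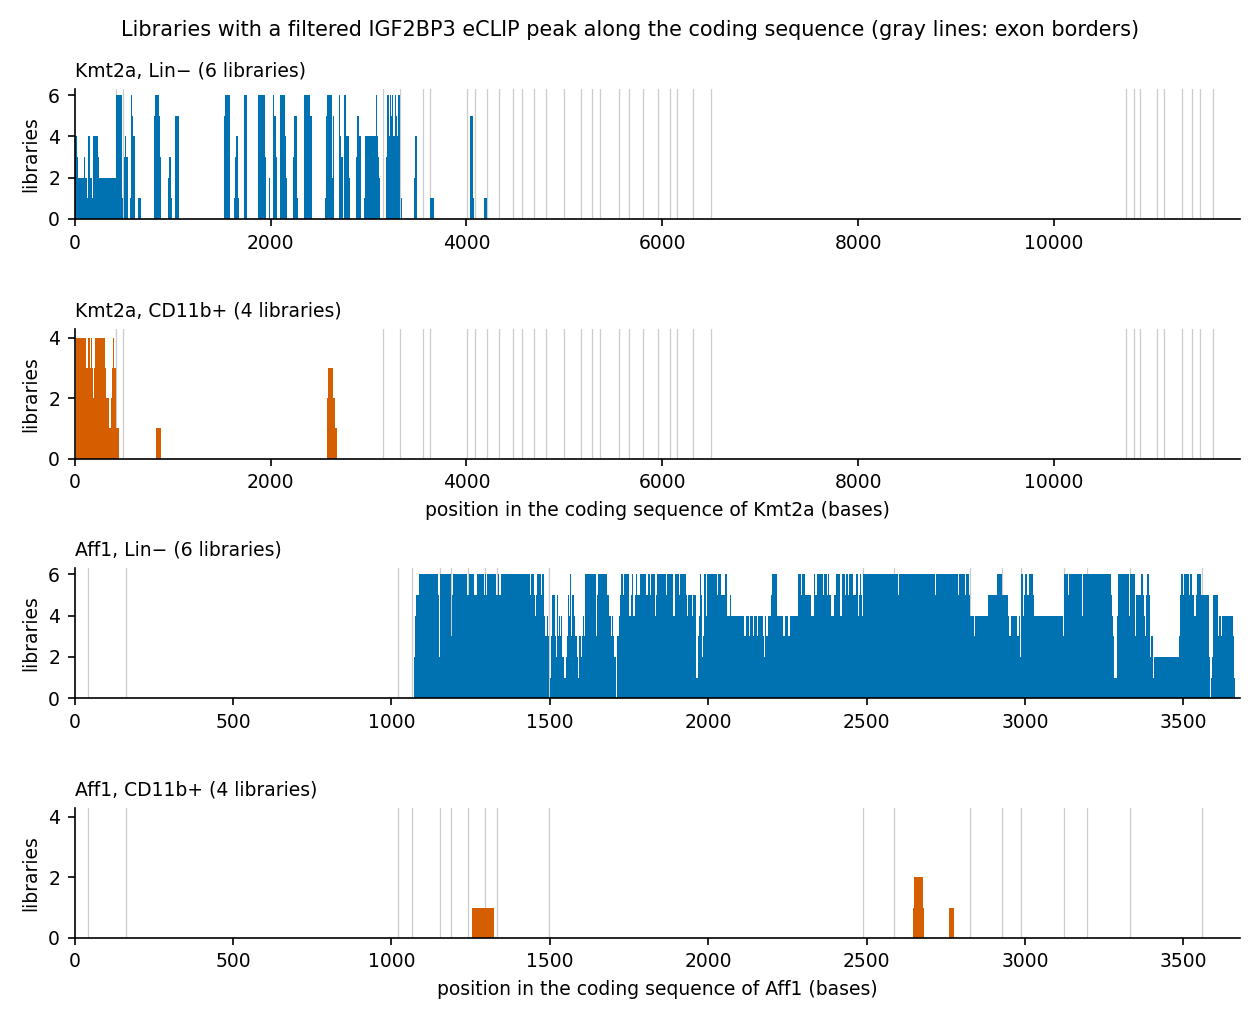
Number of eCLIP libraries with a filtered peak at each base of the coding sequence of *Kmt2a* (11898 bases) and *Aff1* (3678 bases), in Lin− (blue, 6 libraries) and CD11b+ (orange, 4 libraries), with gray lines at exon borders. In Lin− the *Kmt2a* peaks end at base 4206 and the *Aff1* peaks begin at base 1071.

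All coding peaks of *Kmt2a* lay before the midpoint of its coding sequence in every library with such peaks. For *Aff1* the share before the midpoint was 34.4%, 26.6% and 34.7% in Lin− replicates 1 to 3 and 66.7% in CD11b+ replicate 2, which had 3 coding peaks; CD11b+ replicate 1 had no coding peak of *Aff1* and was left out. *Kmt2a* was thus higher in all 4 libraries, by 59.4 percentage points on average (100% against 40.6% ± 17.8, SD, n = 4; exact sign-flip permutation p = 0.125, two-sided, the smallest that 4 libraries allow). Of 32 genes with at least 10 coding peaks in Lin−, 8 (25%) had all of them before the midpoint, *Kmt2a* among them, and 6 (18.8%) had none in the first 25% of the coding sequence, *Aff1* among them. In CD11b+ the same counts were 4 (57.1%), *Kmt2a* among them, and 3 (42.9%) of only 7 genes, and *Aff1* had too few coding peaks to enter. By themselves these shares do not set either gene apart from other genes with many coding peaks.

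In Lin− the peaks of the transgene genes also had another shape. The median width was 6 bases for *Aff1* and 12 for *Kmt2a* in Lin−, beside 51.5 for the cofactors and 48 for all genes. Of the Lin− peaks, 95.1% for *Aff1* and 72.3% for *Kmt2a* directly abutted another peak of the same gene in that library, against 0 of the cofactor peaks and 12.9% over all genes. *Aff1* and *Kmt2a* supplied 1317 and 293 of the 5321 abutting peaks over all genes. Counts of *Kmt2a* and *Aff1* peaks therefore count pieces of longer covered stretches. Merged where they overlapped, over the libraries of both cell types, they formed 32 and 36 sites. In Lin− alone they formed 47 and 33, and sites that only abutted stayed separate. A p below 0.001 was found for 84.9% of *Aff1* and 91.9% of *Kmt2a* peaks in Lin−, against 22.9% of the cofactor peaks and 49.6% over all genes. In CD11b+ the median width was 22.5 bases for *Kmt2a*, 44.5 for *Aff1* and 47 for the cofactors, and 81.0% of the *Kmt2a* peaks but none of *Aff1* or the cofactors abutted another, so *Aff1* peaks there had a shape like that of the cofactor peaks. In Lin− only 2 of the 1385 *Aff1* and 2 of the 400 *Kmt2a* coding peaks crossed an exon border. In CD11b+ 1 of 5 *Aff1* and 3 of 57 *Kmt2a* coding peaks did.

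The sites shared by the most biological libraries are printed to show which bases of each RNA were covered in both cell types. The sequences are the 60 bases of GRCm38 around the midpoint of each site, on the strand of the gene. Capitals mark the bases covered by a filtered peak in 4 biological libraries, the most at any base of these windows. The exon 1 window of *Kmt2a* lies in a site of 362 bases found in all 10 libraries and is 91.7% G and C. The *Kmt2a* windows in exons 2 and 3 belong to sites found in 7 and 9 libraries.
Kmt2a exon 1, chr9:44881075-44881134, minus strand: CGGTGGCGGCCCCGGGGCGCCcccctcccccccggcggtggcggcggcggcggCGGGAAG
Kmt2a exon 3, chr9:44847902-44847961, minus strand: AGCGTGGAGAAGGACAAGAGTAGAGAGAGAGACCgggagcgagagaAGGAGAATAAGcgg
Kmt2a exon 2, chr9:44852947-44853006, minus strand: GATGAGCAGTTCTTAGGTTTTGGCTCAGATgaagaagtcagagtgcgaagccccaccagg
The *Aff1* windows belong to sites in exons 13, 8 and 9, found in 8, 7 and 7 libraries. The exon 13 window is coding, and the exon 8 and exon 9 windows include 5 and 22 intronic bases.
Aff1 exon 13, chr5:103842318-103842377, plus strand: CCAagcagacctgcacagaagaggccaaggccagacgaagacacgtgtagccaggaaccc
Aff1 exon 8, chr5:103825978-103826037, plus strand: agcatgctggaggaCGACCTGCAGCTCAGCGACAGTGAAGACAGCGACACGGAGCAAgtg
Aff1 exon 9, chr5:103826132-103826191, plus strand: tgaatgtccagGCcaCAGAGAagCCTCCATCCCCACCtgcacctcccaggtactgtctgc

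A few cofactor sites recurred in at least 3 libraries. *Cdk9* (chr2:32705784-32713076, minus strand) had an intronic site at chr2:32709938-32710062 in 8 libraries, all 6 of Lin− and 2 of CD11b+, and others at chr2:32710531-32710617 in 5 and at chr2:32708293-32708351 in 4 (2 of each cell type). Its 5′ UTR held a site in 3 Lin− libraries (chr2:32712659-32712743). *Men1* had 1 site in 3 Lin− libraries (chr19:6337424-6337477) and *Dot1l* 1 in 3 Lin− libraries, of which 1 was biological (chr10:80783140-80783200). The *Mllt1* site at chr17:56904893-56904958 was found in 3 CD11b+ libraries and in no Lin− library. *Aff4*, *Psip1*, *Mllt3* and *Mllt10* had no site in more than 2 libraries.

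Of the 41 intronic cofactor peaks in Lin−, 38 (92.7%) had their midpoint within 100 bases of a splice site of the annotation, 22 near a 3′ and 16 near a 5′ splice site, and 29 (70.7%) reached into the exon. Over all genes in Lin−, 66.0% of intronic peaks lay within this distance and 48.4% reached an exon. In CD11b+ the cofactors had 7 of 19 (36.8%) near a splice site and 5 (26.3%) reaching an exon, beside 19.5% and 8.95% over all genes. Intronic peaks of the cofactors thus lay nearer to exons in Lin− than in CD11b+, as did those of all genes, and 6 of the 7 in CD11b+ were in *Cdk9*. These distances were examined after the peak positions had been seen, and no test was made of them.

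A site is printed for each cofactor with a site in at least 2 biological libraries, to show the intronic sequence that recurred. The windows are again 60 bases of GRCm38 on the strand of the gene. Capitals mark the bases covered in the most biological libraries at any base of the window, 2 for *Men1* and *Mllt1* and 4 for *Cdk9*. The *Men1* window ends with the first 2 bases of exon 5, and the other windows are intronic.
Men1 intron and start of exon 5, chr19:6337421-6337480, plus strand: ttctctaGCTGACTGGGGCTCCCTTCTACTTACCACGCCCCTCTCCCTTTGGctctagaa
Mllt1 intron, chr17:56904896-56904955, minus strand: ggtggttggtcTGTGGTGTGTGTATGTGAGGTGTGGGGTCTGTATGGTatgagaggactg
Cdk9 intron, chr2:32709971-32710030, minus strand: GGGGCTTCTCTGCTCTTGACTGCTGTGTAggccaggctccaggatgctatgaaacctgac

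The smInput filter acted unevenly on the members. In Lin− it removed 29.3% of the *Kmt2a* peaks (573 called, 405 kept) and 7.05% of the *Aff1* peaks (1490 called, 1385 kept), against 16.9% over all genes; in CD11b+ it removed none of any member, against 13.6% over all genes. The loss of *Kmt2a* peaks was 32.7%, 1.67% and 58.8% in Lin− replicates 1 to 3 and 38.2%, 1.77% and 66.3% in replicates 4 to 6. The loss of *Aff1* peaks was 10.6%, 0 and 15.1% in replicates 1 to 3 and 10.96%, 0 and 13.6% in replicates 4 to 6. Replicates 2 and 5 thus kept nearly all peaks of both genes, and replicates 3 and 6 lost the most.

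The uneven losses went with the inputs used. For each eCLIP library, exactly 2 smInputs had no overlap with any kept peak, its own and 1 other, and together they accounted for 99.7% to 100% of the removed peaks. Lin− libraries 1 and 4, 2 and 5, and 3 and 6, and CD11b+ libraries 1 and 3, and 2 and 4, shared such inputs, each group with 1 biological and 1 technical replicate. The Lin− smInput replicates 2 and 5 held 1 and 0 *Kmt2a* peaks and no *Aff1* peak, and replicate 5 had only 217 peaks in all. Before the filter, *Kmt2a* had 111, 103 and 80.7 peaks per 10000 in the biological Lin− libraries, a narrower range than after it (92.4, 118 and 38.0).

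Called peaks were also compared between each biological eCLIP library and the smInput that shared its replicate number and library name. *Aff1* had 311, 276 and 267 called peaks per 10000 in Lin− eCLIP and 5.53, 0 and 0 in the paired inputs; in CD11b+ it had 3.14 and 5.10 against 0 and 0. *Kmt2a* had 111, 103 and 80.7 against 16.6, 7.25 and 37.5 in Lin−, and 6.28 and 22.9 against 6.01 and 5.31 in CD11b+. By this measure the eCLIP library was higher for both genes in all 5 pairs, though for *Kmt2a* in CD11b+ replicate 1 by only 0.273. The mean differences were 171 for *Aff1* (172 against 1.11) and 50.3 for *Kmt2a* (64.8 ± 47.5 against 14.5 ± 13.6, SD, n = 5), both with exact sign-flip permutation p = 0.0625 (two-sided), the smallest that 5 pairs allow. The *Kmt2a* values of the inputs rest on only 3, 1, 5, 1 and 1 peaks. Those of *Aff1* rest on 1 peak, in Lin− replicate 1. Its CD11b+ pairs set 3 and 6 eCLIP peaks against none in input lists of only 1665 and 1885 peaks. No direction is read from these CD11b+ pairs. By bases covered per 10000 covered bases the *Kmt2a* difference was -2.92 (exact sign-flip permutation p = 1), with eCLIP higher in 4 of the 5 pairs and far lower in Lin− replicate 3 (32.5 against 97.3), so its direction depended on the measure and on 1 pair.

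For the cofactors, too, the direction depended on the measure. They had 9, 13 and 10 called peaks in Lin− eCLIP against 2, 2 and 3 in the inputs, and 7 and 6 against 2 and 2 in CD11b+, so the eCLIP libraries held more of them. The input lists were much shorter, with 1332 to 1885 called peaks in these 5 libraries against 9111 to 11771. Per 10000 called peaks the cofactors had 9.88, 11.2 and 10.1 in Lin− eCLIP against 11.1, 14.5 and 22.5 in the inputs, and 7.33 and 5.10 against 12.01 and 10.6 in CD11b+. By this share the input was higher in all 5 pairs, with a mean difference of -5.42 (8.72 ± 2.47 against 14.1 ± 4.92, SD, n = 5; exact sign-flip permutation p = 0.0625, two-sided). It rests on 2 or 3 input peaks per library, so no direction is read from it. All cofactor peaks of the inputs came from 2 intronic sites. The *Dot1l* site (chr10:80773076-80773094) was called in all 10 inputs and the *Mllt10* site (chr2:18087394-18087423) in 8, and neither was in a filtered eCLIP list.

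The pairing and the measure mattered for these contrasts. Without the replicate block, treating the libraries as unpaired, the exact permutation p was 0.0238 for *Aff1*, 0.0714 for *Kmt2a* and 0.0238 for the cofactors. By bases covered per 10000 covered bases the difference for the cofactors was 3.34 (exact sign-flip permutation p = 0.1875), with eCLIP higher in 4 of 5 pairs, and that for *Aff1* was 33.9 (exact sign-flip permutation p = 0.0625). With only peaks of p below 0.001 the differences were 267 for *Aff1*, 89.97 for *Kmt2a* and -15.5 for the cofactors, and by reads in peaks per 10000 such reads, a measure chosen after seeing the data, 81.5, 56.1 and -4.19 (exact sign-flip permutation p = 0.0625 for each). The eCLIP and smInput peaks were also called with different settings by the authors.

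The places of the input peaks were also read. In Lin− smInput, 11 *Kmt2a* peaks from 5 of the 6 libraries fell in exon 1 (chr9:44880849-44881247) and 2 in exon 3, and 2 fell at an intronic site (chr9:44850817-44850828). That intronic site was also called in all 4 CD11b+ inputs, where it was the only *Kmt2a* peak, and in no eCLIP library. *Aff1* had 8 input peaks, all in coding exons between exon 11 and exon 20, in 3 Lin− libraries, and none in CD11b+.

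Over the 10 eCLIP libraries, the peaks per 10000 of *Kmt2a* and *Aff1* varied together (Pearson r = 0.925, n = 10). Within the 6 Lin− libraries r was 0.894, and within the 4 CD11b+ libraries it was 0.732. Among 767 genes with at least 20 filtered peaks, those most like *Kmt2a* were *Eef1a1* (r = 0.944), *Gm15832* (0.940) and *Rpl10a* (0.927), and those most like *Aff1* were *Hnrnpu* (0.961), *Rpl10a* (0.958) and *Mir17hg* (0.925). Of the 767 genes, 100 (13%) had every Lin− library above every CD11b+ library, as *Kmt2a* and *Aff1* did, and 123 (16%) had every one below. The points share their cell type, and technical replicates are among them, so these values only describe a common order of libraries.

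Other genes of the same machinery were taken from a list of 42 that covers the MLL core complex, the super elongation, DOT1L and PAF1 complexes and regulators of P-TEFb; 41 were in both tables. A filtered peak was found for 35 in Lin− and 27 in CD11b+; among those with a mean normalized count of 100 or more it was 34 of 40 and 25 of 38, beside the 51.9% and 47.9% of all such genes. They had a median of 3 and 1 peaks per gene. Coding exons held 31 of their 248 peaks in Lin− (12.5%) and 27 of 144 in CD11b+ (18.8%). Much of this came from *Kmt2d*, with 16 of its 41 and 18 of its 36 peaks in coding exons; without it the shares were 7.25% and 8.33%. In Lin− none of them had more than 41 peaks, against 405 and 1385 for the transgene genes, while in CD11b+ *Kmt2d* (36 peaks) lay between *Aff1* (12) and *Kmt2a* (58). Since peaks of the transgene genes are pieces of longer stretches, merged sites were also counted, with peaks merged over the libraries of 1 cell type. By sites the gap in Lin− was much smaller, 25 for *Kmt2d* against 47 for *Kmt2a* and 33 for *Aff1*. In CD11b+ the order turned, 21 for *Kmt2d* against 6 and 7. Merging needed an overlap of at least 1 base, so abutting pieces stayed separate sites. The Lin− site counts of *Kmt2a* and *Aff1* are thus still above their number of continuous stretches. The order of these genes and *Kmt2d* in Lin− is not settled by them. *Kmt2d*, a paralog of *Kmt2a*, had the most merged sites of the list in both cell types. Others with many sites were the PAF1 complex subunit *Ctr9* (13), *Hcfc1* (12) and *Kmt2c* (7) in Lin−, and the P-TEFb cyclin *Ccnt2* (6), *Kmt2c* (6) and *Setd1b* (5) in CD11b+. The RNA level of *Kmt2d* in Lin− was 815 counts per kb, beside 666 for *Kmt2a*, which had 405 peaks there.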

How the data were processed

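The authors aligned single-end RNA-seq reads and paired-end eCLIP reads to the mouse genome build mm10 (GRCm38) with STAR (version 2.5.3a in the submitters' processing notes) and called eCLIP and smInput peaks per library with CLIPper. eCLIP and smInput reads were deduplicated and called with different settings. The deposited peak lists give a position, a gene ID and a p-value of at most 0.05 per peak, and a filtered list without the peaks that overlapped smInput peaks. The deposited expression tables hold a normalized signal, the mean of size-factor normalized counts that the authors computed with DESeq2 over the 6 RNA-seq libraries of a cell type. Their other columns hold the authors' comparison of I3KO with WT (fold change, its error, test statistic, p-values) and overlaps with the peaks; these were not used here, and the genotypes were not compared.

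Peaks were assigned to members by Ensembl gene ID and counted per 10000 peaks of the library, because read depth was not analysed here. The place of a peak was that of its midpoint in the basic GENCODE M21 annotation. Levels were divided by the kb of exon (all transcripts merged). Sites are peaks of any library merged when they overlapped by at least 1 base. Of the filtered peaks, 330 of 41132 in Lin− and 240 of 33246 in CD11b+ carried a gene ID that the annotation did not hold. All 10 members were named, with the 5 genes of the pathway list that had the most merged sites in each cell type (1 of these is not reported here), and the 3 genes with the highest Pearson r for *Kmt2a* and *Aff1*; 1 gene of the pathway list, *Ell3*, was not in the tables. Sequences were read from GRCm38.p6 of RefSeq.

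Biological replicates of the cell types were compared by exact permutation of libraries, and eCLIP with smInput, or gene groups within a library, by exact sign-flip permutation, all two-sided. No such test could pass 0.05: the smallest p was 0.1 for 3 against 2 libraries, 0.0625 for 5 pairs and 0.125 for 4 libraries. Pairs of eCLIP and smInput rest on the material, since the input was taken from the same sample and shares its number and library name. The correlation of their deviations from the group means over 308 genes was -0.0668, 0.0108 and -0.123 in Lin− and -0.228 in CD11b+. Alternatives were all libraries, peaks before the filter, a p below 0.001, bases covered, any overlap with a coding exon, the comprehensive annotation, no replicate block, and leaving out each library. Chosen after seeing the data were reads in peaks (the last number of a peak's name, read as its reads; it fell with p, median Spearman rho -0.990 over 20 libraries), exchanged CD11b+ inputs, means of libraries that shared inputs, the distances to splice sites and the counts by position in the coding sequence. The members and lists were chosen with earlier results of these data known. The permutation tests were checked on a few small made-up inputs with known answers. Python 3.11.15, NumPy 2.4.6, SciPy 1.17.1, matplotlib 3.10.9 and pysam 0.24.0 were used.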

Additional observations from a re-analysis of the deposited data

Results flagged for a closer look

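A library far from the others of its group was looked for in 28 groups of libraries, of which chance marks about 1 in 20. The Lin− eCLIP replicate 5, a technical replicate, had the most *Aff1* peaks per 10000 of its group of 6, 517 after and 427 before the smInput filter; its *Kmt2a* value after the filter was also the highest (171). Its own smInput had 217 peaks, the fewest of all inputs. The Lin− smInput replicate 6 had 47.8 *Aff1* peaks per 10000, from 5 peaks, all in coding exons, while the other Lin− inputs had between 0 and 16.5. The Lin− smInput replicate 5 had 92.2 cofactor peaks per 10000, which were only 2 of its 217 peaks, at the *Dot1l* and *Mllt10* sites found in most inputs. None of these libraries was a biological eCLIP replicate, so their values entered only the tests with all libraries or all pairs and, for eCLIP replicate 5, those with means of libraries that shared inputs. The Lin− smInputs 5 and 6 were, however, among the inputs with no overlap with the filtered lists of biological eCLIP replicates 2 and 3.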

How the results depend on the processing

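Of 85 alternative values for the 8 comparisons, 67 kept their direction and their side of 0.05 and 6 without a p their direction, but no comparison could pass 0.05 as designed, so this says little about stability. Direction turned in 2, both for eCLIP minus smInput by bases covered: *Kmt2a* to -2.92 (exact sign-flip permutation p = 1), through 1 pair, Lin− replicate 3 (32.5 against 97.3), with the other 4 positive, and the cofactors to 3.34 (exact p = 0.1875); the cause was not tested. The other 10 passed 0.05, 8 of them with technical libraries added, which are not independent. With all libraries, Lin− minus CD11b+ was 82.4 for *Kmt2a*, 335 for *Aff1* and 6.09 for the cofactors (exact permutation p = 0.0143, 0.00476 and 0.00476). With libraries that shared inputs averaged first (3 against 2), the same differences had exact permutation p = 0.2, 0.1 and 0.1. With all 10 pairs, eCLIP minus smInput was 64.6, 174 and -12.4 (permutation p = 0.00195, 0.00391 and 0.0254). The within-library differences were then 92.1 percentage points in coding exons (10 libraries, p = 0.00195, permutation) and 67.2 before the midpoint (8 libraries, exact permutation p = 0.00781). Without the replicate block, *Aff1* (171) and the cofactors (-5.42) had exact permutation p = 0.0238. Exchanging the CD11b+ inputs left the mean differences the same by construction (exact sign-flip permutation p = 0.0625 for each).

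Leaving out each library gave 48.2 to 88.0 for *Kmt2a*, 284 to 326 for *Aff1* and 3.56 to 5.81 for the cofactors between cell types, and 38.8 to 62.8, 138 to 213 and -6.48 to -3.67 against smInput. The few libraries and the unknown read depth limit all peak counts, and a gene with few reads can lack a peak.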
